A study of Mus musculus with 6 samples.

Results

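The genes described here were chosen by symbol, and most of them encode proteins of the pre-mRNA splicing machinery. They are the protein-coding mouse genes of the count matrix whose symbols begin with Lsm, Snrp, Sf3a, Sf3b, Prpf or Srsf followed by a digit or letter, with Gpatch11 added. This rule gave 60 genes of the 53465 in the matrix: 14 Lsm, 12 Snrp, 3 Sf3a, 6 Sf3b, 13 Prpf and 11 Srsf genes and Gpatch11. RNA came from cortical brain endothelial cells. The mice were males, 8 to 12 weeks old, with the alleles tie2-Cre, ai9 and rpl22HA/HA. The control group received PBS, a buffered salt solution, and the treated group PTZ (pentylenetetrazol), a convulsant that blocks inhibitory GABA receptors. Each group held 3 libraries, numbered 1, 2 and 4, and both carried all 3 alleles. The Tie2 promoter drives Cre in endothelial cells and also in part of the blood lineage, ai9 is a fluorescent reporter of Cre, and rpl22HA is a tagged ribosomal protein. Dose and time after treatment are not stated in the labels. Whether each library is a different animal is not stated either, so p-values measure only the spread between these libraries.

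Splicing removes introns from pre-mRNA in the spliceosome, which is built from small nuclear ribonucleoproteins (snRNPs). A ring of Sm proteins, encoded by most of the Snrp genes, surrounds the U1, U2, U4 and U5 RNAs, and a ring of LSm proteins holds the end of U6 RNA. The SF3a and SF3b complexes belong to the U2 snRNP and clamp it on the branch site, PRPF proteins build and remodel the later complexes, and SR proteins (Srsf) bind exons and help to choose splice sites. The rule also took in Lsmem1, a membrane protein gene that shares only the prefix.

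Gene counts summed to 11107481 to 15406967 per library, and levels are given in CPM (counts relative to the library total) after TMM scaling, which corrects that total for differences in composition. Reads outside annotated features made up 9.34% of PTZ replicate 1 and 2.99% to 5.19% of the others. All 12 endothelial markers listed were tested, with a summed level of 15497 to 22564 CPM in PBS and 14945 to 27683 CPM in PTZ. Pericyte and smooth muscle markers were positive in log2 fold change for 9 of 9 tested genes (200 to 563 CPM in PBS, 342 to 1078 CPM in PTZ), as were fibroblast markers for 6 of 6 (81.7 to 143 and 84.0 to 261 CPM). Microglia markers were negative for 9 of 9 (2356 to 2810 CPM in PBS, 1529 to 2452 CPM in PTZ), and neutrophil markers for 4 of 5 (172 to 523 and 70.5 to 317 CPM). Red cell markers were negative for 5 of 5, but close to 0, with a median log2 fold change of -0.05 (6577 to 10852 CPM in PBS, 5788 to 11683 CPM in PTZ). Neuron markers summed to 300 to 505 CPM and 273 to 527 CPM, astrocyte markers to 50.7 to 137 and 65.1 to 184 CPM, and oligodendrocyte markers to 60.8 to 213 and 82.7 to 179 CPM. Most of the neuron sum was Stmn2 alone (257 to 409 CPM in PBS, 229 to 422 CPM in PTZ), and the other neuron markers reached at most 40.4 CPM. Choroid plexus and ependyma markers stood at 0.0625 to 0.378 CPM and 0.125 to 0.512 CPM, near 0. The part of these other cells in the values below was not tested, and in bulk RNA fewer cells of a type and less RNA per cell cannot be told apart.

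Splicing genes with the smallest p-values were all lower in PTZ. At an unadjusted p under 0.05 in edgeR's quasi-likelihood test, 10 of 57 tested members were lower and 0 were higher. They were Gpatch11, Lsm8, Snrpb2, Sf3b4, Sf3b5, Sf3b6, Prpf18, Prpf40b, Srsf3 and Srsf7. The share of all 13768 tested genes that were lower at that p was 3.38%, and 3.83% were higher. In 12 of the 57 members all PTZ libraries lay below all PBS libraries, the same 10 with Lsm3 and Snrpc, beside 7.04% of all tested genes. In 1 member, Prpf19, the PTZ libraries were all higher than the PBS libraries, beside 7.3% of all tested genes. Of the 57, 37 had a negative log2 fold change, beside 47.3% of all tested genes, and the median was -0.16, beside 0.03 over all tested genes. The set was drawn up with earlier results of these data known, so these counts are no independent evidence.

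No member passed the adjusted threshold of 0.05 in that test: 0 were higher and 0 lower, and 0% of all tested genes passed in each direction. DESeq2 called 2 members lower, Gpatch11 (adjusted p = 0.0121) and Lsm8 (adjusted p = 0.0272), beside 0.167% of all genes lower and 0.385% higher. The exact test of edgeR called the same 2, beside 20 lower and 37 higher of all 13768 tested genes. Without the low-count filter Gpatch11 alone was called, beside 0.127% lower and 0.221% higher. DESeq2 with the replicate number as a block called 5 lower and 0 higher, beside 0.57% and 0.963%. Limma-voom called 0. Over all 18 alternatives, the adjusted p ranged from 0.00213 to 0.918 for Gpatch11 and from 0.00771 to 0.918 for Lsm8. Lsm8, Sf3b4, Prpf40b, Srsf3, Srsf7 and Gpatch11 kept an unadjusted p under 0.05 in 18 of 18 alternatives. Snrpb2 kept it in 14, and lost it when replicate 1 or 2 of PBS or replicate 1 or 4 of PTZ was left out. Sf3b6 kept it in 15, and lost it when replicate 1 or 4 of PBS or replicate 4 of PTZ was left out. Prpf18 (16) lost it without PBS replicate 4 or PTZ replicate 1, and Sf3b5 (16) without PBS replicate 1 or with scaling by library totals alone.

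**Figure D1:**
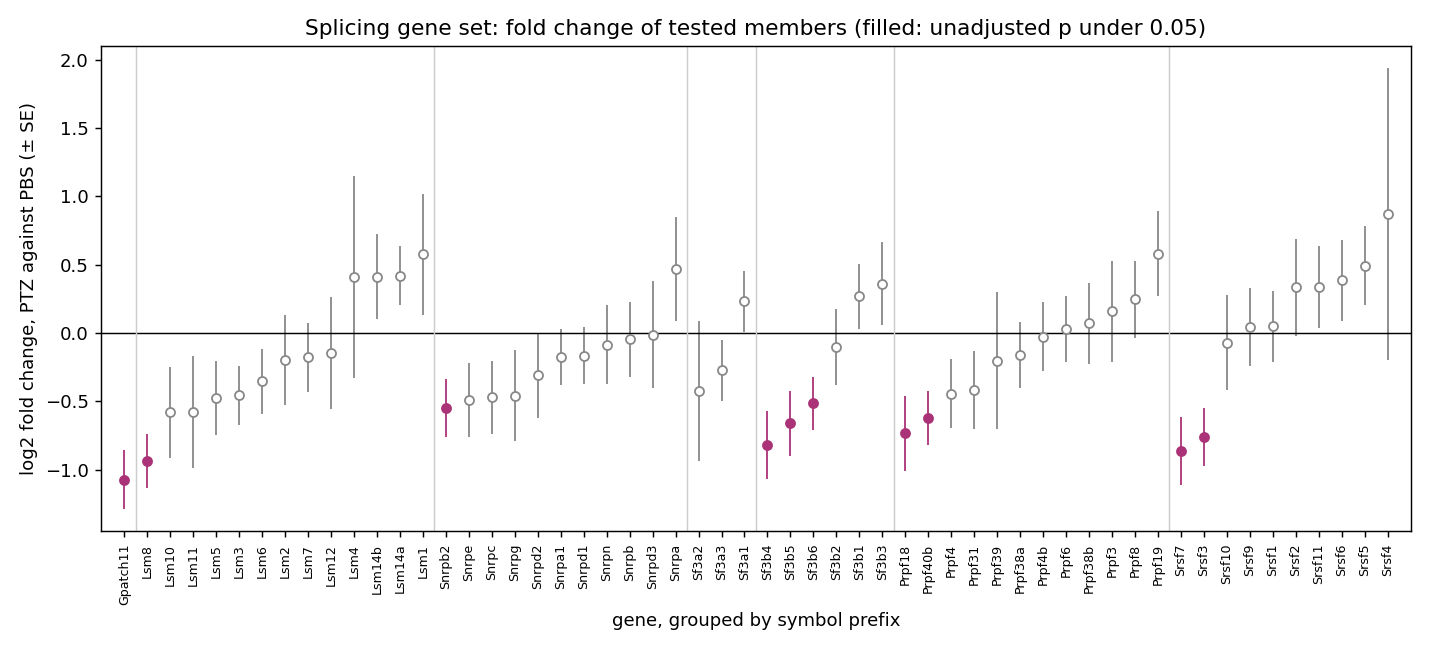
Log2 fold change of PTZ against PBS (vertical axis, with bars of ± SE from edgeR's quasi-likelihood fit) for 56 of the 57 tested members, grouped by symbol prefix along the horizontal axis; filled points have an unadjusted p under 0.05. All 10 filled points lie below 0, from -1.07 for Gpatch11 to -0.51 for Sf3b6.

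Gpatch11 had the largest difference of the set that was lower in PTZ. The G-patch is a short glycine-rich domain by which proteins bind and stimulate RNA helicases of the spliceosome and other complexes. The protein-coding gene (Gpatch11, ENSMUSG00000050668) lies on the plus strand of chromosome 17 from 78835567 to 78848308 in build GRCm38. Gpatch11 had levels of 104, 117 and 87.1 CPM in PBS replicates 1, 2 and 4 and of 43.6, 50.3 and 52.6 CPM in the PTZ replicates. The lowest PBS library was well above the highest PTZ library. The log2 fold change was -1.07 (SE 0.21, edgeR unadjusted p = 0.000486, adjusted p = 0.407), so that PBS was 2.1-fold higher, and it ranged from -1.21 to -0.996 over the alternatives.

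Lsm8 was also lower in every PTZ library than in any PBS library. It encodes the subunit that sets the nuclear LSm ring, which binds U6 RNA, apart from the cytoplasmic ring. The gene (Lsm8, ENSMUSG00000044155) lies on the plus strand of chromosome 6 from 18848579 to 18855751 and is protein coding. Lsm8 had levels of 98.4, 96.5 and 97.8 CPM in PBS and of 45.6, 53.0 and 54.2 CPM in PTZ. The 3 PBS libraries differed little from each other and none came near a PTZ library. The log2 fold change was -0.94 (SE 0.20, edgeR unadjusted p = 0.000754, adjusted p = 0.426), with -1.01 to -0.86 over the alternatives.

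The upstream sequences of Lsm8, Gpatch11 and Srsf7 are shown because each holds the letters CGCATGC or their reverse complement GCATGCG, the core of the element bound by NRF1, a factor known from promoters of housekeeping genes. Each run is given 5′ to 3′ on the gene's own strand, from 150 bases before to 25 bases after the start in RefSeq (build GRCm38.p6), with the match in capitals. Where 8 letters are in capitals, matches on both strands overlap.
Lsm8 (chr6:18848485-18848659, plus strand): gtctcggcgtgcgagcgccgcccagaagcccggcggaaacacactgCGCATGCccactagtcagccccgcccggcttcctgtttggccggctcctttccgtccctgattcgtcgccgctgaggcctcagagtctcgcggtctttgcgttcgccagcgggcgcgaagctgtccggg
Gpatch11 (chr17:78835366-78835540, plus strand): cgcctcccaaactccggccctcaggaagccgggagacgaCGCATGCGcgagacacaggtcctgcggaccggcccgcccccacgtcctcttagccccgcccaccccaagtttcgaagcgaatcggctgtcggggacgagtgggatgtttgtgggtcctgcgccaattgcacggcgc
Srsf7 (chr17:80207281-80207455, minus strand): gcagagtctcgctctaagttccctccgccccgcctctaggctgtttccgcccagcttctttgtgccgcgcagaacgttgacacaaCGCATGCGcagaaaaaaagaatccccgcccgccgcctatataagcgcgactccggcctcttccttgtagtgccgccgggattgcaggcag
The first matching base lies 104 bases before the start in Lsm8, 111 in Gpatch11 and 65 in Srsf7. RefSeq windows of 300 bases (250 before to 50 after the start) were found for 51 of the 60 members, and 7 of these (13.7%) held the 7 letters on either strand, beside 4.01% of 27025 genes with a window. The letters CCGGAAG, read by ETS factors, were in 19 of the 51 (37.3%, beside 9.93% of all), and GGGCGG, read by Sp factors, in 35 (68.6%, beside 38.2%). CCAAT was in 45.1% beside 41.1%, TGACGTCA, read by CREB factors, in 5.88% beside 2.03%, and TATAAA in 9.8% beside 15.7%. Of the 10 members lower at an unadjusted p under 0.05, 7 had a window. Of these 7, 3 held CGCATGC (Lsm8, Gpatch11 and Srsf7), 6 held GGGCGG, 3 held CCGGAAG (Sf3b6, Snrpb2 and Srsf7), 3 held CCAAT (Gpatch11, Prpf40b and Srsf3), 1 held TATAAA (Srsf3) and 0 held TGACGTCA. The 27025 genes outnumber the 21942 protein-coding genes of the matrix and the 13768 genes tested, whereas all members are protein coding. The shares of members and of all genes therefore come from unlike sets, and their difference was not tested. The letters searched were chosen after the windows had been seen, and a match is a description and shows no binding.

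The cytoplasmic counterpart of Lsm8, Lsm1, was not lower in PTZ. Lsm1 replaces Lsm8 in the ring that promotes decapping and decay of mRNA, while Lsm2 to Lsm7 serve both rings. Lsm1 stood at 10.1, 11.2 and 7.56 CPM in PBS replicates 1, 2 and 4 and at 14.8, 7.35 and 20.7 CPM in PTZ. PTZ replicate 2 was the lowest of all 6 libraries and PTZ replicate 4 the highest (log2 fold change 0.58, SE 0.44, edgeR unadjusted p = 0.224). The ratio of the Lsm8 level to the Lsm1 level in CPM was 9.79, 8.65 and 12.9 in PBS and 3.08, 7.22 and 2.62 in PTZ. All PTZ ratios were below all PBS ratios, with a log2 difference of -1.41 (exact 2-sided permutation p = 0.1, the smallest that 3 against 3 libraries allow). Without each library in turn the difference ranged from -1.86 to -1.13. The permutation p was then 0.2 without any of the PBS libraries and 0.1 without any of the PTZ libraries. The ratio includes the difference of Lsm8 itself, given above.

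The subunits shared by both LSm rings were lower in 2 of the 3 PTZ libraries and not in the other. Their summed level was 604, 650 and 637 CPM in PBS replicates 1, 2 and 4 and 412, 675 and 489 CPM in PTZ, so that PTZ replicate 2 was the highest of all. Log2 fold changes were -0.47 for Lsm5, -0.46 for Lsm3, -0.35 for Lsm6, -0.20 for Lsm2, -0.18 for Lsm7 and 0.41 for Lsm4, and 0 of these 6 had an unadjusted p under 0.05 in edgeR. Lsm3 alone of the 6 had groups apart, with 61.8, 54.6 and 59.8 CPM in PBS and 44.0, 47.5 and 37.1 CPM in PTZ (SE 0.22, edgeR unadjusted p = 0.0596). The U7 subunits Lsm10 and Lsm11, which act in the processing of histone mRNA, each had a log2 fold change of -0.58. Their groups overlapped.
Of the other LSm-domain proteins, Lsm14a, which binds repressed mRNA in processing bodies, stood at 74.5, 76.8 and 85.2 CPM in PBS and at 118, 82.6 and 116 CPM in PTZ (log2 fold change 0.42, SE 0.22, edgeR unadjusted p = 0.0793). PTZ replicates 1 and 4 were above all PBS libraries and replicate 2 was among them. Lsm14b was at 0.41 and Lsm12 at -0.15. Lsmem1 had 0 to 0.0993 CPM and was not tested.

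Among the Snrp genes, 10 of 11 tested members had a negative log2 fold change (median -0.18), beside 47.3% of all tested genes. Snrpb2 alone had an unadjusted p under 0.05 in edgeR, beside 3.38% of all tested genes that were lower. Snrpb2 encodes a protein that binds a stem-loop of U2 RNA together with the product of Snrpa1. It stood at 185, 195 and 166 CPM in PBS replicates 1, 2 and 4 and at 108, 151 and 114 CPM in PTZ. The groups were apart, with PTZ replicate 2 nearest to PBS (log2 fold change -0.55, SE 0.21, edgeR unadjusted p = 0.0277, adjusted p = 0.664). Its partner Snrpa1 was at -0.18 (SE 0.20) with overlapping groups. Of the U1 proteins, Snrpc stood at 235, 261 and 284 CPM in PBS and at 121, 233 and 210 CPM in PTZ, and Snrpa was at 0.47 (SE 0.38), with 77.2 CPM in PTZ replicate 4 and 25.5 to 38.4 CPM in all other libraries. The Snrpc groups were barely apart, and its log2 fold change of -0.47 had an edgeR unadjusted p of 0.109.

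The Sm ring itself had no member at that p, and all 7 tested genes had negative log2 fold changes, from -0.49 for Snrpe to -0.01 for Snrpd3. Snrpe stood at 183, 162 and 155 CPM in PBS and at 105, 169 and 82.9 CPM in PTZ (SE 0.27, edgeR unadjusted p = 0.0988). PTZ replicate 2 lay inside the PBS range and the other PTZ libraries far below it. Snrpb, Snrpn and Snrpd3 took positive values under some alternatives and the other 4 did not. Snrpg, Snrpd2, Snrpd1, Snrpn and Snrpb were at -0.46, -0.31, -0.17, -0.08 and -0.05. Snrpb had the highest level per exon length of the set and stood at 793, 786 and 774 CPM in PBS and at 598, 1015 and 667 CPM in PTZ. It turned positive without PTZ replicate 1 (0.10) or PTZ replicate 4 (0.04). Snrpn, the Sm gene known for its high level in neurons and its imprinting, stood at 23.0 to 42.6 CPM in PBS and at 24.8 to 35.4 CPM in PTZ. Snrpn shares its locus and strand with Snurf and much of its sequence with Snrpb, so that its count is uncertain. Snrpf, also a subunit of the ring, had 0.0756 to 0.993 CPM and was not tested. It overlaps Ccdc38 on the other strand, and whether the counting left out its reads was not tested.

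The Sf3b genes of the set divided by subunit size. The small subunits Sf3b4, Sf3b5 and Sf3b6 all were lower in PTZ with groups apart, beside 7.04% of all tested genes. The large subunits Sf3b1, Sf3b2 and Sf3b3 all had overlapping groups. Sf3b4, which contacts the pre-mRNA beside the branch site, stood at 87.4, 96.2 and 137 CPM in PBS replicates 1, 2 and 4 and at 48.5, 61.8 and 71.1 CPM in PTZ (log2 fold change -0.82, SE 0.25, edgeR unadjusted p = 0.00776, adjusted p = 0.615). PBS replicate 4 was the highest and PTZ replicate 1 the lowest. Sf3b5 stood at 172, 143 and 154 CPM and at 93.9, 75.3 and 127 CPM (-0.66, SE 0.24, edgeR unadjusted p = 0.0184). Sf3b6, whose product lies close to the branch-point adenosine, stood at 184, 177 and 189 CPM and at 125, 140 and 120 CPM (-0.51, SE 0.19, edgeR unadjusted p = 0.0232). For Sf3b6 the 3 libraries of each group lay close together. Sf3b4 overlaps 2 predicted genes and Prpf40b overlaps Fam186b on the other strand, which makes their counts less certain; none of the other 8 members lower at an unadjusted p under 0.05 overlaps an annotated gene.

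Sf3b1, the large scaffold of the complex, stood at 328, 328 and 315 CPM in PBS and at 478, 385 and 306 CPM in PTZ (0.27, SE 0.24, edgeR unadjusted p = 0.284). PTZ replicate 4 was the lowest of the 6 libraries and PTZ replicate 1 the highest. Sf3b3 was at 0.36 (SE 0.30), with -0.03 to 0.53 over the alternatives. Sf3b2 was at -0.10 (SE 0.28) and turned positive without PTZ replicate 1 (0.06). Summed, the small subunits stood at 443, 416 and 480 CPM in PBS and at 267, 277 and 318 CPM in PTZ, and the large ones at 842, 861 and 732 CPM and at 889, 980 and 722 CPM. This division was drawn after the values had been seen and carries no test. In SF3a, which joins SF3b on the U2 snRNP, 0 of 3 subunits had an unadjusted p under 0.05 in edgeR, and Sf3a1, Sf3a3 and Sf3a2 were at 0.23, -0.27 and -0.42. Sf3a2 stood at 7.69 CPM in PTZ replicate 1 and at 41.3 to 48.0 CPM in the 5 other libraries, and without that library its log2 fold change was 0.05.

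Of the 13 Prpf genes, all tested, 2 were lower at an unadjusted p under 0.05 in edgeR, beside 3.38% of all tested genes. Their median log2 fold change was -0.03. Prpf40b encodes a protein related to the yeast U1 component that links splice sites early in assembly. It stood at 100.7, 96.7 and 103 CPM in PBS replicates 1, 2 and 4 and at 58.5, 66.2 and 70.5 CPM in PTZ (-0.62, SE 0.20, edgeR unadjusted p = 0.00974, adjusted p = 0.625). The PBS libraries differed by few CPM and lay well above PTZ.
Prpf18, which acts in the second catalytic step, stood at 41.6, 38.8 and 57.5 CPM in PBS and at 22.0, 26.3 and 34.6 CPM in PTZ (-0.73, SE 0.27, edgeR unadjusted p = 0.0222). Prpf19, the ubiquitin ligase that names the Prp19 complex, was the 1 member with all PTZ libraries above all PBS libraries: 13.7, 10.9 and 13.9 CPM in PBS and 19.8, 20.2 and 17.5 CPM in PTZ (0.58, SE 0.31, edgeR unadjusted p = 0.091).
Genes for proteins of the U4/U6.U5 tri-snRNP lay on both sides of 0, with a median log2 fold change of 0.03. Prpf4 was at -0.44, Prpf31 at -0.42, Prpf6 at 0.03, Prpf3 at 0.16 and Prpf8, the scaffold of the catalytic core, at 0.25, with 0 of 5 at an unadjusted p under 0.05 in edgeR. Prpf39, Prpf38a, Prpf4b and Prpf38b were at -0.20, -0.16, -0.03 and 0.07.

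SR protein genes went both ways. Of 10 tested, Srsf3 and Srsf7 were lower in PTZ at an unadjusted p under 0.05 in edgeR, beside 3.38% of all tested genes. Positive log2 fold changes were found for 7 of the 10, and the median was 0.19. Srsf3 and Srsf7 encode SR proteins that also help to export mRNA from the nucleus, and both genes are known to control their own mRNA through an exon that leads to its decay. Counts per gene do not separate such isoforms. Srsf3 (ENSMUSG00000071172, on the plus strand of chromosome 17 from 29032628 to 29043373) stood at 289, 266 and 254 CPM in PBS replicates 1, 2 and 4 and at 189, 146 and 144 CPM in PTZ (-0.76, SE 0.21, edgeR unadjusted p = 0.00494, adjusted p = 0.558). Srsf7 (ENSMUSG00000024097, on the minus strand of chromosome 17 from 80200080 to 80207307) stood at 142, 135 and 158 CPM and at 109, 66.3 and 63.1 CPM (-0.87, SE 0.25, edgeR unadjusted p = 0.00572, adjusted p = 0.577). For both genes PTZ replicate 1 was the highest of the PTZ libraries and still below all PBS libraries.
Srsf5 was the SR gene with the next smallest p. It stood at 178, 78.5 and 126 CPM in PBS and at 206, 161 and 171 CPM in PTZ, with PBS replicate 1 among the PTZ libraries (0.49, SE 0.29, edgeR unadjusted p = 0.119). With the replicate number as a block it was higher at an unadjusted p under 0.05, the 1 member to be so, beside 5.59% of all genes, while 13 members were lower, beside 5.31%. It was also higher at that p without PBS replicate 1. Srsf6, Srsf11, Srsf2, Srsf1, Srsf9 and Srsf10 were at 0.39, 0.34, 0.34, 0.05, 0.04 and -0.07, with overlapping groups, and of these Srsf6 and Srsf11 kept their sign over the alternatives. Srsf4 (0.0993 to 3.13 CPM) was tested at a low level, at 0.87 (SE 1.07), and Srsf12, with 0 to 0.151 CPM, was not tested.

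**Figure D2:**
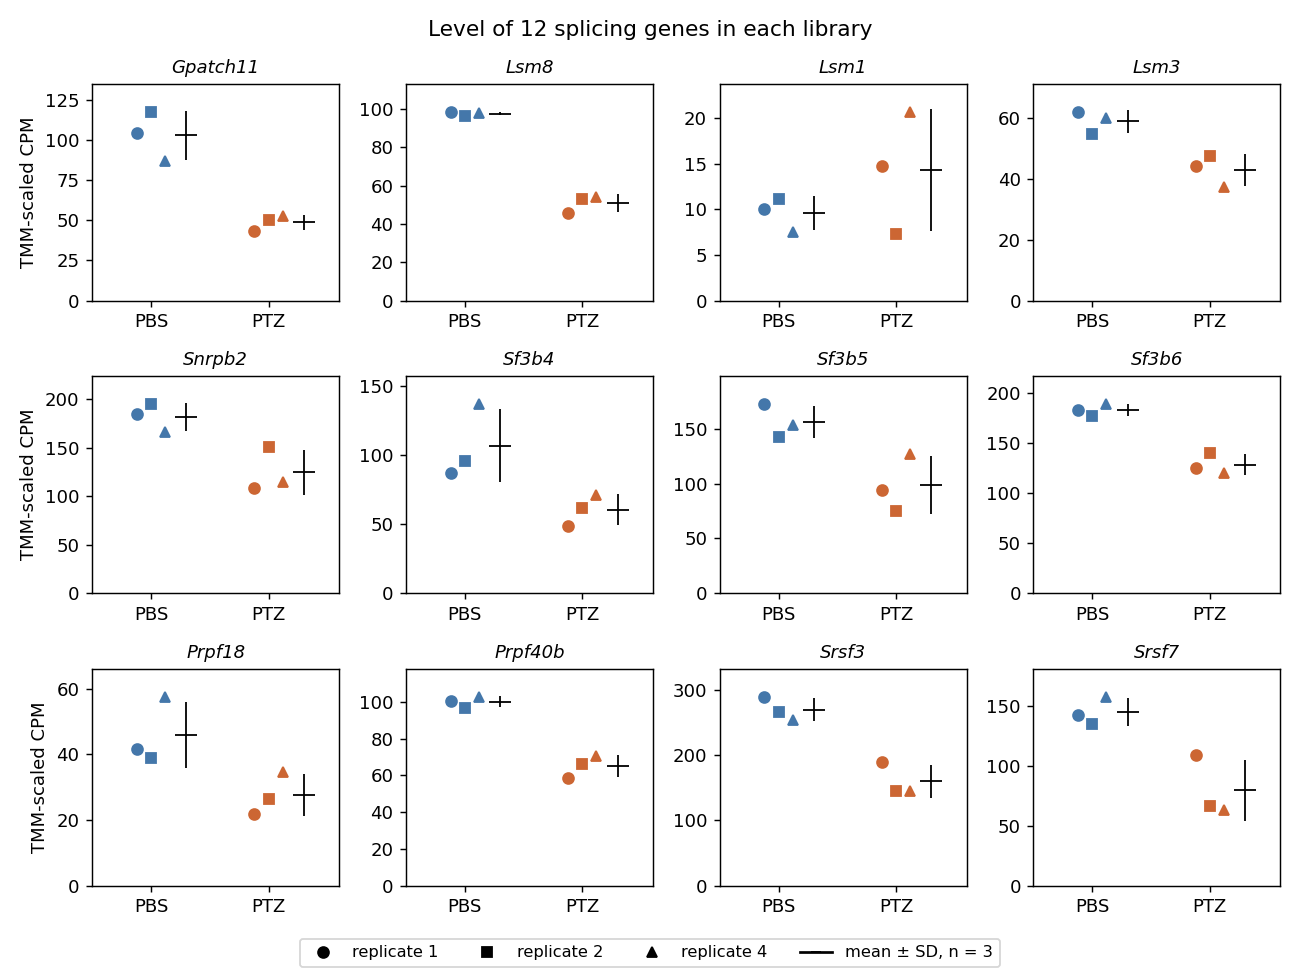
Level in TMM-scaled CPM (vertical axes, from 0) of 12 members in each PBS and PTZ library; symbols mark the replicate number and bars the mean ± SD (n = 3). Except for Lsm1, whose PTZ libraries range from 7.35 to 20.7 CPM around the PBS values, all PTZ points lie below all PBS points.

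Groups of members differed in their pattern across the PTZ libraries; these differences were not tested. For each library the median log2 level of a group relative to the PBS mean was taken (with 0.1 CPM added). For the shared LSm ring it was -0.57, 0.11 and -0.51 in PTZ replicates 1, 2 and 4, and for the Sm ring -0.46, 0.19 and -0.56. PTZ replicate 2 lay above all PBS libraries, which were at 0.015 to 0.026 for the shared LSm ring and -0.019 to 0.016 for the Sm ring. The small SF3b subunits were at -0.73, -0.79 and -0.59, low in all 3 libraries. The SR proteins were at 0.35, -0.33 and 0.11. The 77 cytosolic ribosomal protein genes were at -1.13, 0.70 and -0.57 in PTZ, where replicate 2 was the highest as it was for the Sm and LSm rings, and at -0.32, 0.37 and -0.13 in PBS. Replicate 2 was the highest PTZ library also in the summed red cell markers (5788, 11683 and 6213 CPM in PTZ replicates 1, 2 and 4) and endothelial markers (14945, 27683 and 16347 CPM). In PBS, too, replicate 2 was the highest library in the red cell markers (6577, 10852 and 7338 CPM in PBS replicates 1, 2 and 4). The same held for the endothelial markers in PBS (15497, 22564 and 17475 CPM). PTZ replicate 2 was the lowest PTZ library in pericyte and smooth muscle markers (1078, 342 and 1015 CPM in PTZ replicates 1, 2 and 4) and fibroblast markers (245, 84.0 and 261 CPM). It was the highest in neutrophil markers (92.2, 317 and 70.5 CPM). In PBS, replicate 2 was neither the lowest in the former markers nor the highest in the neutrophil markers. The part of all these genes in the Sm and LSm values was not tested. For the small SF3b subunits, Gpatch11 and Lsm8, PTZ replicate 2 was as low as the other PTZ libraries.
Leaving out PTZ replicate 2 raised the number of members lower at an unadjusted p under 0.05 in edgeR from 10 to 20, beside 6.48% of all genes. The same 10 were among them. The others were Lsm3, Lsm5, Lsm6, Snrpc, Snrpd2, Snrpd3, Snrpe, Snrpg, Prpf4 and Prpf31, and Lsm14a was higher, beside 4.57% of all genes. Leaving out PTZ replicate 1, the library with the largest share of reads outside features, left 8 lower and 0 higher, beside 3.17% and 2.76% of all genes.

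**Figure D3:**
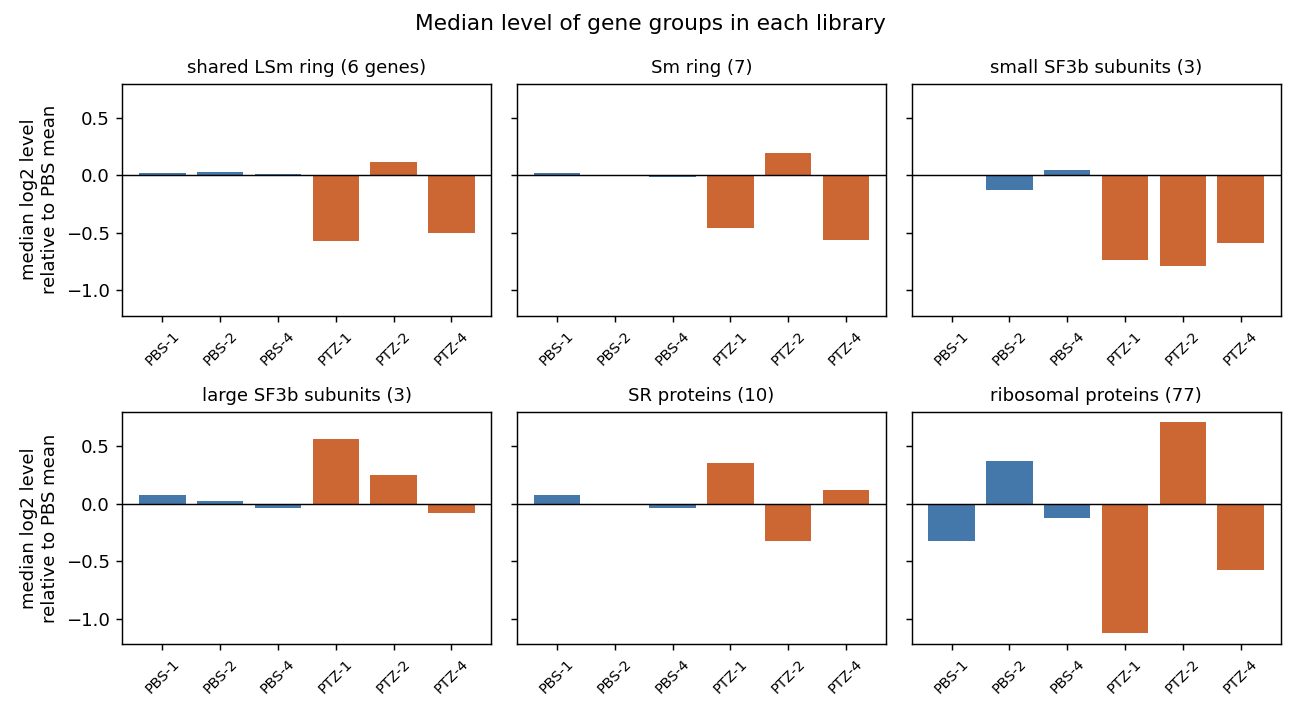
Median over the genes of a group of the log2 level in each library relative to the PBS mean (vertical axis; blue PBS, orange PTZ; 6 groups, with the number of genes in the panel title). The Sm and LSm rings are low in PTZ replicates 1 and 4 and not in replicate 2 (0.19 and 0.11), the small SF3b subunits are low in all 3 (-0.79 to -0.59), and the ribosomal proteins range from -1.13 to 0.70 within PTZ.

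Levels between genes were compared as CPM per kilobase of exon over all 6 libraries. Snrpb stood highest at 391, followed by Lsm7 at 204, Lsm10 at 125, Snrpg at 115, Snrpd2 at 112 and Snrpe at 104, all subunits of Sm or LSm rings. Sf3b2 led the SF3b genes at 61.2, Srsf5 the SR genes at 38.5, Sf3a3 the SF3a genes at 38.0 and Prpf6 the Prpf genes at 24.96. The ring subunits were not level with each other: Lsm4, at 3.71, and Lsm2, at 5.33, were far below Lsm7, and Lsm8, at 17.7, was above Lsm1, at 3.86. Gpatch11 stood at 12.3. The exon length sums all annotated exons of a gene, which lowers the values of genes with many rare exons.

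**Figure D4:**
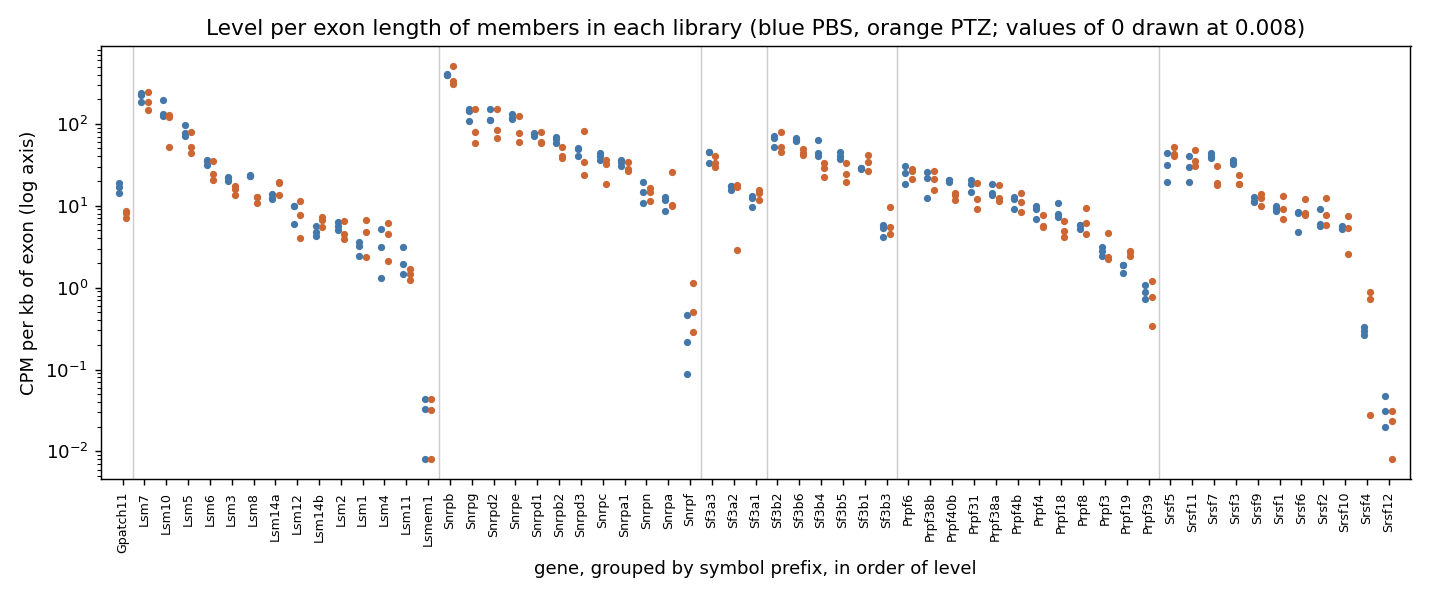
CPM per kilobase of exon (log axis) of 59 of the 60 members in each library (blue PBS, orange PTZ), grouped by prefix and ordered by level; values of 0 are drawn at 0.008. Snrpb is highest at a mean of 391, and Lsmem1 and Srsf12 lie lowest, below Srsf4 and Snrpf.

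Other genes of the pathway were counted from further lists, at TMM scaling. For all lists below, the share of all tested genes with a negative log2 fold change was 47.3%. At an unadjusted p under 0.05 in edgeR, 3.38% of all tested genes were lower and 3.83% higher. Of 33 genes of the Prp19 complex, the catalytic steps and disassembly, 27 had a negative log2 fold change (median -0.15), and 4 were lower and 0 higher at an unadjusted p under 0.05 in edgeR. They were Bcas2, Ppil1, Dhx8 and Bud31. Bcas2, a core subunit of the complex, stood at 284, 233 and 269 CPM in PBS and at 191, 166 and 173 CPM in PTZ (-0.57, SE 0.20, edgeR unadjusted p = 0.0186). The PTZ libraries all lay below the PBS libraries. Prpf19 of the same complex had the opposite sign, as given above.
Among 29 tested snRNP proteins outside the symbol rule, 14 were positive and 15 negative. Sf1, which recognises the branch point before the U2 snRNP and SF3b take its place, stood at 73.7, 85.8 and 72.3 CPM in PBS and at 113, 159 and 131 CPM in PTZ (0.80, SE 0.21, edgeR unadjusted p = 0.00337). All PTZ libraries were above all PBS libraries. The tri-snRNP protein Sart1 was at 0.60 (SE 0.23) and the U5 helicase Ddx23 at -1.63 (SE 0.53). The Sart1 groups were apart. Ddx23 stood at 25.3, 25.1 and 8.39 CPM in PBS and at 7.25, 3.08 and 8.51 CPM in PTZ, with PBS replicate 4 among the PTZ libraries.
In the handling of U6 RNA, the ligand of the LSm8 ring, 1 of 8 tested genes had an unadjusted p under 0.05 in edgeR. Usb1, the exonuclease that trims the end of U6 on which that ring sits, stood at 19.9, 22.8 and 25.3 CPM in PBS and at 7.32, 10.6 and 5.82 CPM in PTZ (-1.52, SE 0.36, edgeR unadjusted p = 0.00159, adjusted p = 0.446). The highest PTZ library was below the lowest PBS library.

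For assembly of the Sm ring and import of snRNPs, 13 of 17 tested genes were negative (median -0.27) and 0 had an unadjusted p under 0.05 in edgeR, Smn1 being at -0.55 (SE 0.25). Minor spliceosome genes had 0 of 12 at that p, with a median of -0.20.
Partners of the cytoplasmic LSm ring in decapping and decay had a median of 0.20 over 15 genes, and 1, the deadenylase gene Cnot8, was lower (-0.58, SE 0.20, edgeR unadjusted p = 0.0166).
Of 26 hnRNP genes, which encode proteins that bind nascent RNA, 7 were negative and the median was 0.32. Hnrnph1 stood at 103, 79.3 and 90.1 CPM in PBS and at 205, 111 and 138 CPM in PTZ (0.74, SE 0.26, edgeR unadjusted p = 0.0159), with the groups apart. A list of SR protein kinases, phosphatase regulators and an import receptor was positive for 9 of 10 tested genes (median 0.28). Ppp1r10 was higher (0.65, SE 0.23) and Ppp1r8, an inhibitor of protein phosphatase 1 in the nucleus, lower (-0.58, SE 0.23). SR-related and exon junction genes had a median of 0.08 over 29 tested genes. The mRNA export adaptor gene Alyref was at 0.94 (SE 0.28), Tra2a, a splicing activator with SR-like domains, at -0.88 (SE 0.32) and Magohb of the exon junction complex at -1.001 (SE 0.40).
Of 21 other G-patch genes 14 were positive, with a median of 0.08. Gpatch2 stood at 7.99, 8.19 and 6.65 CPM in PBS and at 31.2, 12.9 and 24.0 CPM in PTZ (1.58, SE 0.40, edgeR unadjusted p = 0.00247), opposite in sign to Gpatch11. The difference between these lists and the members was not tested.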

How the data were processed

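RNA-seq libraries of brain endothelial cells were compared between 3 PBS and 3 PTZ libraries. Per the submitters' processing notes the build was GRCm38 and the tools included TopHat2 2.1.1 and HTSeq, beside CASAVA and edgeR. Strand setting and annotation release are not stated. The authors deposited raw read counts for 53465 genes, per the file headers. A further 5 rows name no gene (16.1% to 22.9% of reads) and were left out. For every library the authors deposited scaled signal values too, each count divided by 1 factor (100% whole within 0.01 reads when multiplied back), used as an alternative scaling. Gene types, exon lengths and coordinates came from GENCODE M21 (GRCm38).

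Counts were analysed in R 4.3.3 with edgeR 4.0.16; DESeq2 1.42.0 and limma 3.58.1 served as alternatives. After filterByExpr (minimum count 10, minimum total 15) 13768 of 34777 genes with any read were tested. TMM scaling, glmQLFit and glmQLFTest were used with the group as the factor, 2-sided, and p-values were adjusted over all tested genes by Benjamini-Hochberg (threshold 0.05). The SE is the fold change divided by the root of its F statistic. The biological coefficient of variation was 0.470, and total counts set the counting precision. Libraries of a group differed beyond sampling noise. Replicate numbers come from the sample titles. Libraries of equal number deviated together from their group means (correlations 0.167, 0.197 and 0.217, each over 0.1), which met the rule for pairing. The labels do not say that the numbers pair the libraries. The values reported are therefore from the fit without a block, as planned, and the fit with it was an alternative. The permutation test of the Lsm8 to Lsm1 ratio also left the numbers out. Other scalings, filters and tests, and fits without each library were alternatives.

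The members and lists were chosen with earlier results of these data known. Genes were named by a rule: Gpatch11, Lsm8 and Lsm1, in each prefix group the 3 smallest p and the highest level per length, other members by log2 fold change, and up to 3 genes per further list. Of the further values given, those of Sf3b1, Snrpa, Snrpn and Bud31 were chosen after they were seen. Symbols Nhp2l1, Papd4 and Ddx39a were not matched. One member's own values are not reported here.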

Additional observations from a re-analysis of the deposited data

How the results depend on the processing

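The number of members past the adjusted threshold was 0 higher in every alternative, and 1 lower without the low-count filter, 2 in DESeq2, 2 in edgeR's exact test and 5 in DESeq2 with the replicate block (a fit added after seeing the data), namely Gpatch11, Lsm8, Sf3b4, Srsf3 and Srsf7. With the replicate block edgeR's quasi-likelihood test gave 0, and members at an unadjusted p under 0.05 became 13 lower (Lsm10, Snrpc and Snrpe added) and 1 higher (Srsf5). In DESeq2 with the block they were 14 lower (Snrpg also added) and 1 higher (Srsf5), beside 6.58% and 6.2% of all genes, and in limma-voom with the block 15 lower (Lsm3 and Snrpg also added) and 2 higher (Lsm14a and Srsf5), beside 6.17% and 7.05%. Without each library in turn they were 7 to 20 lower and 0 to 1 higher, beside 1.88% to 6.48% and 2.54% to 4.57% of all genes, members with groups apart were 12 to 25 lower and 2 to 6 higher, beside 9.97% to 14.7% and 10.9% to 15.5%, and the median of the members was -0.37 to -0.13, the extreme being that without PTZ replicate 2. Over all genes 53 were higher and 23 lower past the threshold in DESeq2, 77 and 44 without the filter, 37 and 20 in the exact test, 1 and 0 in limma-voom, 130 and 77 in DESeq2 with the block and 11 and 2 in limma-voom with the block, and 0 to 8 higher without each library. Without PBS replicate 2 there were 8. The cause of these differences was not tested.

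Of the 24 members picked by p or level under the naming rule, 20 kept their sign in all alternatives. Snrpb, Sf3a2, Sf3b2 and Prpf6 did not. Members outside these 24 also changed sign in some alternatives. Among them were Lsm12, Snrpa, Snrpd3, Snrpn, Sf3b3, Prpf3, Prpf4b, Prpf8, Prpf38b, Prpf39, Srsf1, Srsf2, Srsf9 and Srsf10. Without each library in turn, Snrpb ranged from -0.349 to 0.102 (0.04 without PTZ replicate 4), Sf3a2 from -0.785 to 0.0483 and Sf3b2 from -0.425 to 0.0638, each highest without PTZ replicate 1. Prpf6, near 0, ranged from -0.175 (without PBS replicate 4) to 0.178, and was at -0.06 and -0.05 without PTZ replicates 1 and 2, -0.00634 with upper quartile scaling, -0.0441 with the authors' scaling and -0.0208 without the filter. The median of all genes, 0.03, was -0.00205 with upper quartile scaling and -0.0347 with the authors' scaling, and -0.00965 (without PTZ replicate 2) to 0.0344 without each library. Precision is limited by 3 libraries per group and, for Snrpf, Srsf4, Srsf12 and Lsmem1, by counts.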
